A study of Mus musculus with 2 samples.

Results

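Crypt top fibroblasts (CTFs) of the wild-type mouse colon are described here from 1 droplet single-cell RNA library. A cell was taken as a CTF where its corrected counts were at least 3 for Pdgfra and at least 1 for F3, with Cd34 at 0, Myh11 under 5 and Rgs5 under 10, within the cells with Epcam under 5 and Col1a1 of at least 5. This rule found 609 CTFs, which are 19.3% (95% Clopper-Pearson interval 17.9 to 20.7%) of the 3160 low-Epcam Col1a1 cells and 8.13% of the 7495 cells in the table. The 7 genes of the rule chose the cells, so their values describe the choice and are no finding. Median Pdgfra was 8 (range 3 to 40) and median F3 was 7 (range 1 to 35) in the CTFs. The CTFs were set against the other 2551 Col1a1 cells, which comprised 1630 cells with Cd34 of at least 1, 597 cells in the Myh11 range (at least 5), 63 cells in the Rgs5 range (at least 10) and 261 cells that failed the limits on Pdgfra or F3 alone.

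The wild-type library held epithelial and non-epithelial colon cells sorted without CD45+ cells from C57BL/6 mice. They were mixed in equal parts before loading on the v3 kit, so the share of CTFs among all cells depends on the mix. A further library held GFP-positive mesenchymal cells, sorted with a viability stain alone, from the colon of Pdgfra-H2B-eGFP mice, which carry a green fluorescent protein fused to a histone under the control of the Pdgfra gene, and was made with the v2 kit. Each library pooled 3 female mice, which were 8 to 12 weeks old, and no map leads from cells to mice. Each library is therefore 1 sample, no test across mice was possible, and intervals cover counting error of cells only. Values are corrected counts, the whole-number output of SCTransform in which each cell was adjusted by the authors to a common depth, and a level is the mean corrected count per cell. A ratio is the log2 of the mean in CTFs over the mean in the compared cells, each with 0.01 added. Expression was compared between classes for 1 gene at a time and not between genes, since the values are not per length.

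Fibroblasts of the lamina propria hold up the epithelium and secrete the ligands that tell epithelial cells where along the crypt they are. Bone morphogenetic proteins (BMPs) push epithelial cells toward differentiation, and canonical Wnt ligands, R-spondins and BMP antagonists at the crypt base keep stem cells dividing. Fibroblasts with high Pdgfra lie beneath the epithelium toward the crypt mouth and are known as a source of BMPs and of the noncanonical ligand Wnt5a. Position was not measured in these data, and the cells here were given the name crypt top by their markers. The paper chose the name from imaging, which placed Pdgfra-high cells of reporter mice at the crypt top. It also located Wnt5a RNA there by in situ hybridization.

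Total corrected counts per CTF lay between 6867 and 10756 (median 8264), with a median of 2526 genes and 8.94% mitochondrial values, against 8516, 2664 and 8.36% in the other Col1a1 cells. Scrublet called 95 cells of the library doublets, 1 of them a CTF. It was run on the corrected counts, which were adjusted to a common depth, and the effect of this on the calls was not tested. Between the libraries 1 cell barcode was shared. Krt8, a keratin of epithelial cells, was above 0 in 60.1% of CTFs and 48.9% of other Col1a1 cells, at means of 1.00 and 0.936 against 39.6 in 3008 cells with Epcam of at least 5. A share of cells above 0 can hence include free RNA, whose part in single results was not tested.

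The label has 5 markers, and the 3 that the rule did not use are described here. They were chosen with earlier results of these data known and are no independent evidence for the label. Sox6, a transcription factor of the SoxD group, was above 0 in 59.9% (95% interval 55.9 to 63.9%) of CTFs, with a median of 1 and a highest value of 14, and in 5.72% (4.85 to 6.70%) of other Col1a1 cells, at means of 1.49 and 0.112 (log2 ratio 3.61). Wnt5a was above 0 in 74.7% of CTFs, with a median of 2 and a highest value of 28, and in 26.5% of the others (means 3.01 and 0.467, log2 ratio 2.66). Glp2r, the receptor for the gut hormone glucagon-like peptide 2, was above 0 in 35.8% of CTFs, with a median of 0 and a highest value of 6, and in 2.20% of the others (means 0.645 and 0.0353, log2 ratio 3.86). At least 1 of the 3 was above 0 in 91.0% of CTFs, in 29.9% of the other Col1a1 cells and in 10.8% of epithelial range cells, and all 3 in 17.2%, 0.706% and 0.0665%. Most CTFs thus carried at least 1 label marker outside the rule, and 55 CTFs (9.03%) carried none of the 3. On GRCm38, Sox6 lies at chr7:115470872-116038796, Wnt5a at chr14:28504750-28527448 and Glp2r at chr11:67661502-67771153.

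Cells on both sides of a limit of the rule are given as a description. The 41 CTFs with Pdgfra of exactly 3 averaged 1.41 for Sox6, 1.27 for Wnt5a and 4.66 for Bmp5, and the 48 cells with Pdgfra of 2 that met every other limit averaged 0.75, 1.13 and 4.69. CTFs with Pdgfra of 10 or more, 261 cells, averaged 3.84 for Wnt5a, while 106 cells with Pdgfra at 0 and F3 of at least 1 averaged 0.179. The 44 CTFs with F3 of 1 averaged 0.773 for Sox6 and 2.32 for Wnt5a against 0.571 and 1.10 in 49 cells with F3 at 0. The 24 cells excluded by a Cd34 value of 1 averaged 3.75 for Wnt5a and 6.25 for Procr, above the CTF means of 3.01 and 4.69, whereas 241 cells with Cd34 of 2 or more averaged 0.772 and 0.560.

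Windows upstream of leading genes are shown, each of which had a higher mean in CTFs than in the other Col1a1 cells. RefSeq promoter windows (GRCm38.p6) were taken as the 250 bases before a start, and 286 of the 408 genes 2-fold or more higher in CTFs had 396 windows. Letters searched on both strands were TGTTTAC for Fox, TGTGGTT for Runx, CTTTGAT for Lef/Tcf, CACTTGA for Nkx2, ACAATGG for Sox factors and TATAAA for a TATA box, and none of the motifs contains another. Below are the window of Glp2r (chr11:67771154-67771403, minus strand), whose ratio was the highest, and the third Sox6 window (chr7:115995087-115995336, minus strand) and the Wif1 window (chr10:121033754-121034003, plus strand), which were picked for holding a match. Each is written from 5′ to 3′ on the strand of the gene, with matched letters in capitals.
Glp2r: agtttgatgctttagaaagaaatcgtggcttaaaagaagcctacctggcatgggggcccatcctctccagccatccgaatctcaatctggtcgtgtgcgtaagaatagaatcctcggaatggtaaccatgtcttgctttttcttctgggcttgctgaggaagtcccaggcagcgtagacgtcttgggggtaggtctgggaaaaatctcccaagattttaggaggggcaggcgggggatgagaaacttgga
Sox6: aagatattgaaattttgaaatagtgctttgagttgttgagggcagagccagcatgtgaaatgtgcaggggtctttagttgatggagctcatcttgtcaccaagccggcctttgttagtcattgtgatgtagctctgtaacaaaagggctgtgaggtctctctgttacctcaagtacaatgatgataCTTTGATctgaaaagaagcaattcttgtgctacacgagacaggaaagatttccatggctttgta
Wif1: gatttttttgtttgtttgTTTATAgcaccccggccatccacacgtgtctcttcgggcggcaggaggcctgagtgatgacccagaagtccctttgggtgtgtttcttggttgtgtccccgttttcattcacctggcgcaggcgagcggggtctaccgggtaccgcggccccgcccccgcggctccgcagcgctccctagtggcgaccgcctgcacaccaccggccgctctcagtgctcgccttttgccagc
The Sox6 window held the Lef/Tcf letters, the Wif1 window held the TATA letters on the opposite strand, and the Glp2r window held none of the 6. Of 6 Sox6 windows 3 held no match, 1 held the Nkx2 letters, 1 the Lef/Tcf letters and 1 the TATA letters. TATA letters stood in 12.4% (95% interval 9.30 to 16.0%) of the windows of higher genes, in 6.34% of the 11387 windows of all genes compared and in 12.4% of all 32851 windows. The Fox letters stood in 3.03%, 2.22% and 3.17%, the Runx letters in 3.28%, 2.97% and 4.40% and the Lef/Tcf letters in 3.28%, 2.28% and 3.21%. The Nkx2 letters stood in 2.53%, 1.73% and 2.68%, and the Sox letters in 1.26%, 1.57% and 3.02%. A match is a run of letters and no measured binding.

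Across 11597 genes with a mean of at least 0.02 in the Col1a1 cells, 408 (3.52%) were 2-fold or more higher in CTFs and 1016 (8.76%) were 2-fold or more lower, with a median log2 ratio of -0.07. These shares are the background for each list counted below against the other Col1a1 cells, and a list with 1 or 2 members past 2-fold in a direction is given as a count with nothing read from it. The counts depend on the scale, since the mean of the deposited log values gave 36 and 32 genes, and 0.1 added in place of 0.01 gave 223 and 354. Against Cd34 cells alone, 575 (4.96%) were higher and 932 (8.04%) lower. Against Myh11 range cells alone, 758 (6.54%) were higher and 1071 (9.24%) lower. Genes were ranked by ratio where the higher class had a mean of at least 0.2 and values above 0 in at least 10% of its cells. The 20 highest of these, all between 3.00 and 3.86, held a group of secreted factors with Bmp3, Fgf9, Edn3 (endothelin 3), Cxcl14, Wif1 and Wisp1. Receptors and surface proteins among them were Glp2r, Procr (the endothelial protein C receptor), Cd38 (an enzyme that cleaves NAD), Lpar3 (a receptor for lysophosphatidic acid) and Ptpre (a protein tyrosine phosphatase). Trpa1 and Ano2 encode ion channels, Cybrd1 a ferric reductase, Elovl7 a fatty acid elongase, Col4a6 a basement membrane collagen and Emid1 a secreted protein with an EMI domain. The others were Sox6, Eva1a and Bean1. Procr averaged 4.69 in CTFs (quartiles 1 to 7) and 0.461 in the others, with 3.30 in the Rgs5 range and 1.04 in cells with Pecam1 of at least 3. Emid1 averaged 3.64 and 0.352, and Bean1, which was near 0 in epithelial range cells (0.00731), averaged 0.826 and 0.0678. Over these 20 genes the share of cells above 0 lay between 13.5 and 81.9% in CTFs (median 39.8%) and between 0.233 and 48.8% in epithelial range cells (median 2.19%). Elovl7 and Cd38 stood at the top of the epithelial range, with means there of 0.737 and 0.685 against 0.240 and 0.604 in CTFs.

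**Figure D1:**
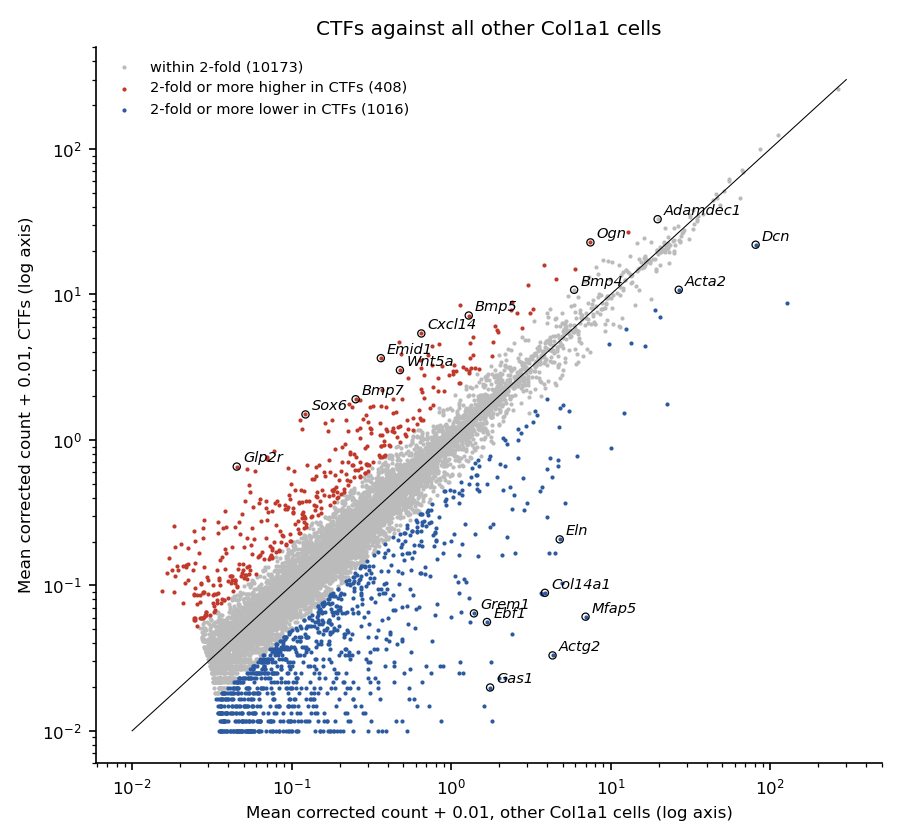
Each point is 1 of 11597 genes, with its mean corrected count plus 0.01 in the other 2551 Col1a1 cells on the x axis and in 609 CTFs on the y axis, both on log scales, and the line marks equal means. Red points (408) were 2-fold or more higher in CTFs and blue points (1016) 2-fold or more lower, and Mfap5 and Actg2 sit farthest below the line.

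The 20 lowest ratios under the same limits lay between -7.03 and -5.28 and were mostly of muscle genes and of genes high in Cd34 cells. The rule itself limited Cd34 and Myh11. Low values of genes high in Cd34 cells or in the Myh11 range, here and below, are therefore read as a description of the choice. Actg2, Lmod1, Cnn1, Hhip and Gas1 had their highest mean among the Col1a1 classes in the Myh11 range, where Actg2 averaged 18.1 against 0.0230 in CTFs. Mfap5, a protein of elastic microfibrils, averaged 0.0509 in CTFs, 7.17 in Cd34 cells and 9.43 in Myh11 range cells. Col14a1, C3, C4b, Ccl11, Stmn2, Scara5, Pcolce2, Cd248 and Hsd11b1 were highest in Cd34 cells, with Col14a1 at 5.77 there and 0.0788 in CTFs. Ntn4 and Gda were at 0 in all 609 CTFs, so that up to 0.493% of cells, by a floor of 3 cells, could hold a value. Sfrp2 and Edil3 were above 0 in 1 CTF each, Des and Scara5 in 2 and Pcolce2 and Cd248 in 3, so no fold is given for these. Where a gene was near 0 in CTFs its ratio depends on the 0.01 added.

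Most BMP ligands measured were higher in CTFs than in the other Col1a1 cells. Of 9 measured ligands and related factors 5 were 2-fold or more higher and 1 was lower (median log2 ratio 2.11), beside 3.52% and 8.76% over all genes. Bmp3, an atypical BMP, was above 0 in 43.7% of CTFs and 5.57% of the others (means 1.36 and 0.103, log2 ratio 3.60), and in 18.9% of epithelial range cells. Bmp7 averaged 1.89 and 0.242 (log2 ratio 2.92), and Bmp2 averaged 3.55 and 0.626 (log2 ratio 2.48). Bmp5 was above 0 in 95.6% of CTFs with quartiles of 4 and 9, at a mean of 7.15 against 1.28 (log2 ratio 2.47). Inhba, which encodes a subunit of activin A, averaged 0.923 and 0.205 (log2 ratio 2.11). Bmp4 was high in every stromal class, with 10.8 in CTFs, 6.59 in Cd34 cells and 4.30 in Myh11 range cells, and did not reach 2-fold (log2 ratio 0.87). Bmp6 averaged 0.529 and 0.639, and Gdf10 was above 0 in 2 CTFs. On GRCm38 Bmp3 lies at chr5:98854415-98884396, Bmp5 at chr9:75775364-75900310 and Bmp7 at chr2:172868012-172940321.

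The antagonists split by member. Grem1, which binds BMPs outside the cell, was above 0 in 3 of 609 CTFs (0.493%) and in 24.5% of the others, at means of 0.0542 and 1.38. Of 12 measured antagonists 7 were 2-fold or more lower and 3 were higher (median log2 ratio -1.19). Those higher were Nbl1, at 16.0 against 3.81 (log2 ratio 2.07), Twsg1, a BMP binding protein that can favour or block signalling, at 4.60 against 1.30 (log2 ratio 1.82), and Fst, at 0.149 against 0.0525. Chrdl2 and Sostdc1 were at 0 in all CTFs, and their values came from the Myh11 range (0.725) and from the cells that failed Pdgfra or F3 alone (1.49). Among 14 BMP receptors and response genes 1 was 2-fold or more higher and 2 were lower, beside 3.52% and 8.76% over all genes. The higher one was Id1, a direct BMP target, at 5.55 in CTFs, 1.30 in Cd34 cells and 2.37 in Myh11 range cells. Id3 averaged 16.8 and 10.2 in CTFs and others, Smad6 0.230 and 0.160, and the receptors Bmpr1a and Bmpr2 lay within 2-fold (log2 ratios -0.23 and 0.28). The lower ones were Id4 (log2 ratio -1.35) and Bmpr1b, which was above 0 in 1 CTF.

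**Figure D2:**
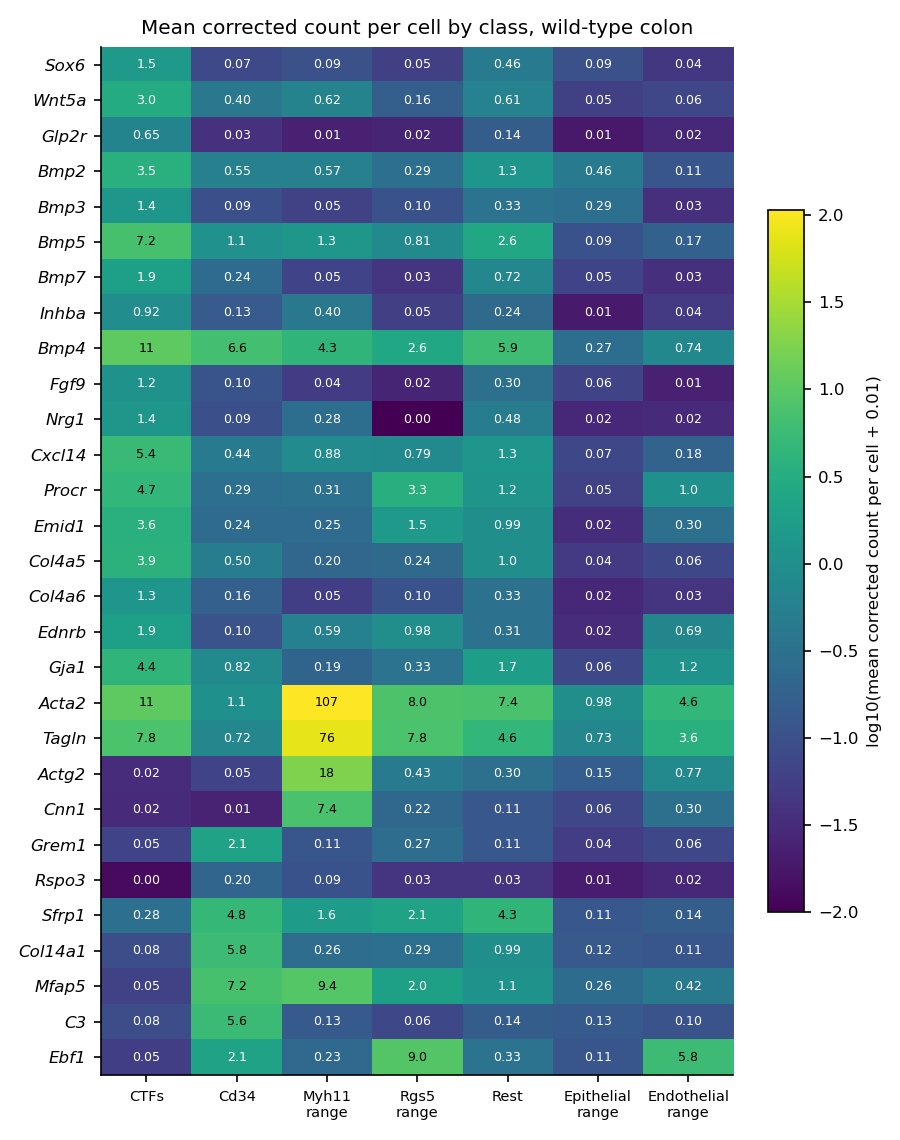
Rows are genes and columns are cell classes of the wild-type library, and each field gives the mean corrected count per cell with its colour on a log10 scale after adding 0.01. Bmp2, Bmp3, Bmp5, Bmp7, Wnt5a and Fgf9 are highest in the first column of CTFs, Grem1 and Rspo3 are near 0 there, and Acta2 is at 11 against 107 in the Myh11 range.

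Canonical Wnt ligands were scarce in CTFs. Wnt2 was at 0 in all 609 CTFs and above 0 in 12.9% of other Col1a1 cells, and Wnt2b averaged 0.0378 and 0.165 (log2 ratio -1.87). Of 8 measured Wnt ligands 2 were 2-fold or more higher, Wnt5a and its relative Wnt5b (0.581 against 0.276), and 4 were lower. Wnt4 averaged 2.23 in CTFs, 1.54 in Cd34 cells and 0.377 in Myh11 range cells, within 2-fold of the others as a whole. Rspo3, which boosts Wnt signalling through Lgr receptors, was above 0 in 2 CTFs and in 9.88% of the others. The secreted Wnt inhibitors divided, with 5 of 8 lower and 2 higher. Sfrp1 averaged 0.284 in CTFs and 4.83 in Cd34 cells, and Sfrp2 and Sfrp4 were above 0 in 1 and 2 CTFs. Wif1, which binds Wnt ligands, was higher with a mean of 0.483 against 0.0443 (log2 ratio 3.18), and so was Dkk2, at 0.0657 against 0.0220 and above 0 in 17 CTFs, while Dkk3 averaged 2.69 and 1.64. Among 19 Wnt receptors and response genes 2 were 2-fold or more higher, Lef1 (0.240 against 0.0463, log2 ratio 2.15) and Tcf7 (0.0870 against 0.0353), both transcription factors of the pathway. Fzd1 and Fzd4 were lower, and Axin2, a target of canonical Wnt signalling, averaged 0.0328 and 0.0588.

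Nrg1, a ligand of ErbB receptors, averaged 1.36 in CTFs and 0.169 in the others (log2 ratio 2.94), and was above 0 in 37.6% (95% interval 33.7 to 41.6%) and 9.64% of cells. Nrg2 averaged 0.330 and 0.0592 (log2 ratio 2.30), and Ereg 0.783 and 0.489. Nrg1 and Nrg2 were the 2 of 8 EGF family genes past 2-fold upward, and Erbb3 was the 1 past it downward. Fgf9 averaged 1.17 and 0.106 (log2 ratio 3.35), and Fgf7, an epithelial growth factor, 1.14 and 0.415 (log2 ratio 1.44), although Fgf7 was above 0 in like shares of cells (30.5% and 28.6%). Fgf10, Fgf2 and Igf1 were lower in CTFs by mean (0.128 and 0.236, 0.115 and 0.208, 0.491 and 1.66), with Igf1 past 2-fold. Of 16 FGF and IGF genes 2 were higher and 6 lower, the latter with Igfbp4 (0.872 against 10.0), Igfbp5 and Fgfr2.

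Of 9 hedgehog genes 1 was 2-fold or more higher and 4 were lower. Ptch1, receptor and target of the pathway, averaged 3.77 in CTFs, 1.19 in Cd34 cells and 3.49 in Myh11 range cells (log2 ratio to all others 1.07). Gli1 averaged 0.210 and 0.261. The co-receptor Gas1 was above 0 in 4 CTFs (mean 0.00985) against a mean of 1.74, and Hhip averaged 0.0936 in CTFs and 19.9 in the Myh11 range. In the TGF-beta list 1 of 10 genes was higher, Tgfbi (5.64 against 1.93, log2 ratio 1.55), which encodes a matrix protein induced by TGF-beta, and 4 were lower, including Tgfb3 (0.0443 against 0.294) and Tgfbr3. In the Notch list 1 of 8 was higher (Dll1, 0.227 against 0.0749) and 3 were lower, among them Notch3, which was at 0 in all CTFs. In the PDGF list 3 of 6 were lower and none of the other members reached 2-fold upward. Against Cd34 cells alone 0 of the 6 were higher and 0 lower, beside 4.96% and 8.04% over all genes. Pdgfc averaged 1.41 in the Myh11 range and was above 0 in 3 CTFs.

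The basement membrane list, 20 genes measured, had 4 members 2-fold or more higher and 5 lower. The alpha5 and alpha6 chains of collagen IV were higher, Col4a5 at 3.88 against 0.475 (log2 ratio 3.00) and Col4a6 at 1.30 against 0.151 (log2 ratio 3.03), whereas the common chains Col4a1 and Col4a2 stayed within 2-fold (log2 ratios 0.07 and 0.21). Lama5, the laminin alpha5 chain, averaged 0.657 and 0.115 (log2 ratio 2.42), and Lamb1 5.85 and 2.78 (log2 ratio 1.07). Col15a1 was among those lower, at 0.358 against 2.98.
Of 29 interstitial matrix genes measured 2 were 2-fold or more higher and 8 lower, beside 3.52% and 8.76% over all genes. The other 19 lay within 2-fold, among them Col1a2 and Col3a1 (log2 ratios 0.34 and 0.09). Col6a1, Col6a2 and Col6a3 had log2 ratios of 0.94, 0.84 and 0.89. The 2 higher were Tnc, tenascin C (6.05 against 1.87), and Ogn, osteoglycin (22.8 against 7.46). The 8 lower belonged largely to elastic and microfibrillar matrix, with Eln at 0.197 in CTFs and 7.10 in Cd34 cells, Mfap4 at 0.655 and 6.43, Fbln1, Fbln2, Fbn1 and Mfap5, together with Dcn (21.9 and 114) and Col14a1.

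Contractile genes ran in opposite directions against the different neighbours. Acta2, smooth muscle actin, averaged 10.8 in CTFs (quartiles 1 to 17), 1.05 in Cd34 cells and 107 in Myh11 range cells. Its log2 ratio was -1.31 against all other Col1a1 cells and 3.34 against Cd34 cells. Tagln, Myl9 and Tpm2 behaved alike, with ratios of -1.27, -1.08 and -1.11 against all others and 3.42, 3.16 and 1.88 against Cd34 cells. Of 15 listed genes none was 2-fold or more higher against all others and 8 were lower, beside 3.52% and 8.76% over all genes. Against Cd34 cells 11 were higher and 2 lower, beside 4.96% and 8.04%. On the mean of the deposited log values the ratios against all others were 0.49 for Acta2, 0.094 for Tagln, 0.29 for Myl9 and 0.31 for Tpm2, so their direction depends on the scale. The genes of mature smooth muscle were near 0, since Actg2 averaged 0.0230, Cnn1 0.0197 and Lmod1 0.0131, against 18.1, 7.44 and 8.17 in the Myh11 range. The rule itself limited Myh11, so low values of smooth muscle genes are read as a description of the choice.

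Guidance molecules were mostly lower, 13 of 21 measured against 4 higher, beside 8.76% and 3.52% over all genes. Sema3f, a secreted semaphorin, averaged 1.68 and 0.230 (log2 ratio 2.82), and its receptor gene Nrp2 3.09 and 1.39 (log2 ratio 1.14). Unc5b and Sema6a were the other two higher. Sema3c, Sema3d, Slit3, Nrp1 and Ntn1 were lower, with Sema3c at 0.253 against 1.83 and Slit3 at 0.158 against 0.881. Of 12 ephrins and Eph receptors Efnb2 was the 1 higher gene (0.857 against 0.178, log2 ratio 2.21) and 3 were lower.

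Both cyclooxygenase genes, which encode the enzymes that begin prostaglandin synthesis, were higher in CTFs. Ptgs1 averaged 2.65 and 0.525 (log2 ratio 2.31) and Ptgs2 3.11 and 0.639 (log2 ratio 2.27), with Ptgs2 above 0 in 49.8% of CTFs and reaching 48. Ptgis, the prostacyclin synthase, averaged 1.03 and 0.450, and Hpgd, which breaks prostaglandins down, 2.15 and 0.896. These 4 of 13 genes were past 2-fold upward and 3 downward. Against Cd34 cells alone 2 of the 13 were higher and 2 lower, beside 4.96% and 8.04% over all genes. Among 12 retinoid genes 2 were higher, Aldh1a1 (3.80 against 0.711, log2 ratio 2.40) and Rdh10 (1.16 against 0.567), which make retinoic acid and retinal, and 3 were lower, with Aldh1a3 among them. Of 14 receptors and coupling genes 4 were higher. They were Glp2r, the endothelin receptor Ednrb (1.87 against 0.256, log2 ratio 2.82), the gap junction gene Gja1 (4.38 against 0.751, log2 ratio 2.53) and the chloride channel Ano1 (0.384 against 0.0533), which epithelial range cells also held (0.438). The angiotensin receptor gene Agtr1a was above 0 in 1 CTF and in 16.4% of the others.

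Of 31 transcription factors measured 9 were 2-fold or more higher in CTFs and 9 were lower. Those higher included Sox6, Sox4, Foxl1, Runx1, Runx2, Lef1, Zeb1 and Tbx3. Runx1 averaged 2.23 and 0.636 (log2 ratio 1.79) and Tbx3 1.02 and 0.258 (log2 ratio 1.95). Foxl1, the marker of subepithelial telocytes, averaged 0.662 in CTFs and 0.0638 in Cd34 cells but 0.704 in the Myh11 range. Its relatives Foxf1 and Foxf2 and the gut factor Nkx2-3 lay just under 2-fold (log2 ratios 0.94, 0.96 and 0.91). On the lower side Ebf1 averaged 0.0460 against 1.67 (log2 ratio -4.90), Zeb2 0.742 against 4.19, and Osr1 0.192 against 0.995. Foxp2 was above 0 in 2 CTFs, and Prrx1 was at 0 in all of them. Zeb1 and Zeb2, which are paralogs, had log2 ratios of 1.03 and -2.48.

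Chemokines and cytokines were lower in 9 of 19 cases and higher in 3, beside 8.76% and 3.52% over all genes. Cxcl14 averaged 5.38 in CTFs (quartiles 0 to 8, highest cell 74) and 0.640 in the others, and Il34, a ligand of the macrophage receptor Csf1r, 0.695 and 0.214. The third was Tslp (0.261 against 0.109). Ccl2, Ccl7, Ccl8, Ccl11, Il33 and Il6 were each lower, with Ccl11 at 0.0772 against 3.72 and Il33 at 0.0115 against 0.339. Cxcl12 was abundant on both sides (17.0 and 9.63). Complement genes had a median log2 ratio of -3.84, 5 of 8 lower and none of the other 3 past 2-fold. C3 averaged 0.0788 in CTFs and 5.64 in Cd34 cells, and Cd55, which protects cells from complement, 0.156 and 6.17, whereas C1s1 and C1ra stayed within 2-fold. Of 19 proteases and inhibitors 3 were higher, Plau, the urokinase gene (1.13 against 0.214), Mmp10 (0.218 against 0.0247) and Mmp2 (7.88 against 3.25), and 6 were lower. Adamdec1, a protease of gut stroma, averaged 32.9 and 19.7. Among 10 surface markers Cd44 was higher (3.22 against 0.860), Pi16, Thy1, Cd81 and Ackr4 were lower, and Ly6a lay within 2-fold (9.21 and 7.76).

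Markers of other cell types were summed per cell. The rule limited Epcam, Myh11 and Rgs5, so low sums of epithelial, smooth muscle and pericyte markers are read as a description of the choice. The 11 epithelial markers all lay within 2-fold of the other Col1a1 cells, with a summed mean of 6.17 in CTFs, 5.96 in the others and 240.2 in epithelial range cells, and single CTFs ranged from 0 to 104. The endothelial list summed to 0.228 against 64.3 in Pecam1 range cells and the immune list to 0.192, with highest sums in a single CTF of 52 and 93. Haemoglobin values reached 10 or more in 2 CTFs and 6226 at most. The glia and neuron list summed to 0.0263, the mesothelial list to 0.0213, and the pericyte list to 0.916 against 18.1 in Rgs5 range cells. The smooth muscle list summed to 0.504 against 57.5 in the Myh11 range. Notch3 and Ndufa4l2, pericyte markers, were at 0 in all CTFs. Both measured markers of the interstitial cells of Cajal were higher in CTFs, Ano1 and Etv1 (0.897 against 0.288), while Kit, their defining receptor, was above 0 in 1 CTF. The list for crypt bottom fibroblasts, which was chosen by the study on these cells and is no independent evidence of direction, had 8 of 9 genes lower. General fibroblast genes lay within 2-fold in 8 of 10 cases, Mmp2 was higher and Dcn lower. Immediate early and heat shock genes, which rise on dissociation, were within 2-fold in 14 of 15 cases, with Fos at 24.8 and 22.8 and Atf3 lower (1.17 and 2.60).

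CTFs differed among themselves. Over 7387 genes with a mean of at least 0.1 the median ratio of variance to mean across CTFs was 1.29, and Tagln (21.5), Acta2 (16.1), Cxcl14 (11.0), Ptgs2 (10.7), Fgf7 (5.41), Nrg1 (5.23) and Bmp3 (3.61) were above it, while Bmp5 (2.33) and Bmp7 (1.60) were nearer to it. Ward clustering on 15 components of 1000 variable genes, with the rule genes left out, split the CTFs into groups of 142 (A), 171 (B) and 296 cells (C). The groups were formed from these genes, so the values below describe them. The 5 leading genes of group A were Dmp1, Fam105a, Paqr5, Il1rl1 and Lpar3, those of group B were Wif1, Mgarp, Chrd, Adam33 and Tnni2, and those of group C included Nnat, Ceacam1, Klf5 and Maf. Group C had fewer genes per cell (median 2222 against 2946 in A and 2625 in B), a higher mitochondrial share (9.83% against 7.76% and 8.87%) and a higher epithelial marker sum (mean 8.13 against 3.46 and 5.04). The part of depth and free RNA in group C was not tested.

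Nrg1 and Fgf7 were highest in group A. Nrg1 averaged 4.38 in group A, 0.0994 in B and 0.642 in C, and Fgf7 4.15, 0.0819 and 0.304. Of 11597 genes 1313 (11.3%) were 2-fold or more higher in A than in B and 970 (8.36%) were 2-fold or more lower. In the FGF and IGF list 5 genes were 2-fold or more higher in A than in B and 4 were lower. Ptgs2 (9.11 in A, 0.298 in B), Plau (3.67, 0.0643), Tbx3 (2.85, 0.234), Lama5 (2.32, 0.0351), Lef1 (0.831, 0.0117), Igfbp6 (11.3, 0.409), Tnc (14.9, 2.29), Cd44 (7.37, 1.49) and Glp2r (1.55, 0.216) went the same way. Bmp2 and Wnt5a were highest in A (6.60 and 5.39) but present in B (1.84 and 2.70). 

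Acta2 and Tagln were higher in group B than in A, and so were Bmp3 and Sox6. Acta2 averaged 22.4 in B and 1.70 in A, Tagln 19.2 and 0.0775, Bmp3 3.06 and 0.0986, Sox6 2.54 and 0.408, Wif1 1.42 and 0.0141, and Efnb2 1.91 and 0.120. The chemokine Cxcl12 averaged 27.4 and 2.15, Ogn 28.9 and 2.87, Lum 10.6 and 0.620, and the prostacyclin synthase Ptgis 2.30 and 0.0211, opposite to Ptgs2. Among the label markers outside the rule, the means of Glp2r and Wnt5a were highest in A and that of Sox6 in B. Bmp5, Bmp7, Bmp4, Fgf9 and Col4a5 were within 2-fold between A and B, with Bmp5 at 8.40, 7.49 and 6.36 and Fgf9 at 1.40, 1.19 and 1.05 in A, B and C. Myh11 averaged 0.561 in B and 0.197 in A, below the cap in every cell by the rule.

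**Figure D3:**
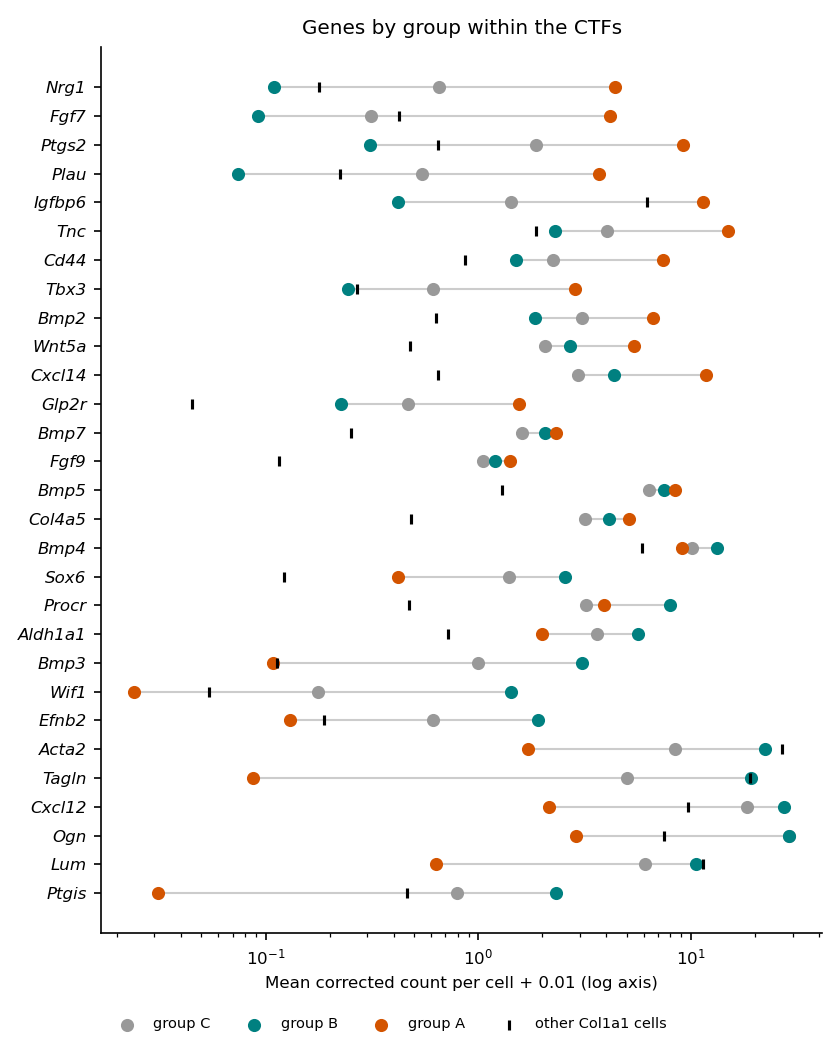
Dots give the mean corrected count per cell plus 0.01, on a log axis, of 29 genes in group A (142 cells), group B (171) and group C (296) of the CTFs, and a bar marks the other 2551 Col1a1 cells. Nrg1, Fgf7 and Ptgs2 at the top are highest in A, Acta2, Tagln and Cxcl12 near the bottom are highest in B, and Bmp7, Fgf9 and Bmp5 lie close together in all 3 groups and above the bar.

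Across the 609 CTFs Nrg1 and Fgf7 had a Spearman correlation of 0.61, Nrg1 and Ptgs2 of 0.56, Nrg1 and Tagln of -0.58, Bmp3 and Cxcl12 of 0.54, Acta2 and Myl9 of 0.72, and Ptgs2 and Ptgis of -0.42. Wnt5a and Bmp2 gave 0.38 and Wnt5a and Bmp5 0.23. These describe cells that share 1 library and its depth, with free RNA in common, and have no test. With 2 groups in place of 3, the 142 cells of A stayed 1 group and B and C joined, and with 4 groups A and B kept all their cells and C was divided. These are cuts of the same tree and are nested by construction, so they cannot show whether the groups are stable.

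**Figure D4:**
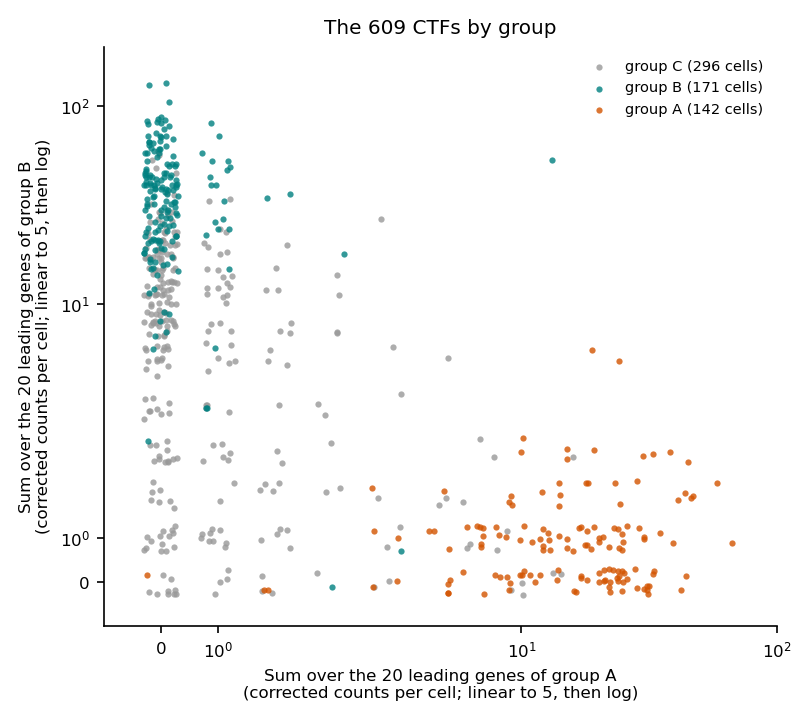
Each point is 1 of the 609 CTFs, with the corrected counts summed over the 20 leading genes of group A on the x axis and of group B on the y axis, both linear to 5 and log beyond, jittered by up to 0.3. The 142 cells of group A (orange) spread along the x axis, the 171 of group B (teal) along the y axis, and few cells are high in both sums.

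The reporter library was not used to choose the CTFs above. The same limits found 44 cells of its 2143 low-Epcam Col1a1 cells (2.05%, 95% interval 1.50 to 2.75%), and a Pdgfra limit of 2 found 85. Its values were at a lower depth (median total 3150 against 8972 corrected counts), so the shares of the libraries are not compared. Of 9234 genes with a mean of at least 0.02 in its Col1a1 cells, 939 (10.2%) were 2-fold or more higher in the 44 cells and 1314 (14.2%) lower. Of 284 genes 2-fold or more higher in wild-type CTFs and measured there, 190 (66.9%) were also 2-fold or more higher. Of 587 lower genes 386 (65.8%) were also lower, while 3 and 13 genes passed 2-fold the opposite way. The same limits chose the cells in both libraries, and 1253 of the other 2099 reporter cells were Cd34 cells. Genes that follow the rule genes can therefore agree through the choice, and the size of this part was not tested. In the reporter library Sox6 had a log2 ratio of 2.41, Wnt5a 2.18, Bmp3 3.16, Bmp5 1.79, Bmp7 2.18, Fgf9 2.92 and Ednrb 3.33. Grem1 was at 0 in all 44 cells and above 0 in 20.4% of the other 2099. Ptgs2 (-0.18 against 2.27 in wild type), Dll1 (-0.56 against 1.48), Ereg (-0.37 against 0.67) and Wnt4 (-0.90 against 0.86) did not keep their direction. Glp2r was below the mean needed for a comparison, and was above 0 in 9.09% of the 44 cells and 1.10% of the others. Kit, mice and sort differed between the libraries and cannot be told apart.

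**Figure D5:**
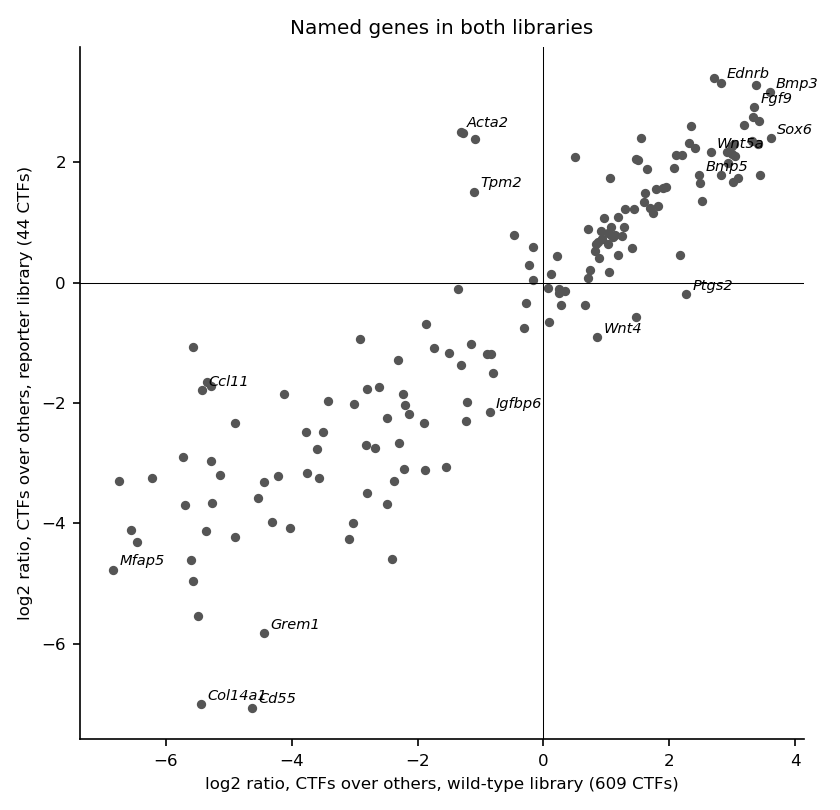
Each point is a gene named in the text, with its log2 ratio of CTFs over other Col1a1 cells in the wild-type library (609 CTFs) on the x axis and in the reporter library (44 cells by the same limits) on the y axis. Genes at 0 among the 44 cells are placed by the 0.01 added. Most genes lie in the lower left or upper right, Acta2, Tagln, Myl9 and Tpm2 in the upper left and Ptgs2 and Wnt4 in the lower right.

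The split among CTFs was looked for in the 44 reporter cells through the 20 leading genes of group A and the 20 of group B, 40 in all, summed in each cell. Of these cells 9 had the larger sum in the genes of A, 34 in those of B and 1 had equal sums. The sums add unlike genes, so these numbers are not shares of the groups. Genes outside the 40 then differed between the 9 and the 34. Nrg1 averaged 1.33 (above 0 in 5 of 9) and 0.0882 (3 of 34), Tbx3 0.889 (4 of 9) and 0 (0 of 34), Igfbp6 1.22 (6 of 9) and 0 (0 of 34), and Bmp2 2.67 (8 of 9) and 0.647 (17 of 34). Toward B, Cxcl12 averaged 4.11 and 15.7, Acta2 2.56 and 5.82, Bmp3 0.111 (1 of 9) and 0.912 (18 of 34), Ogn 1.67 and 7.21, and Ptgis 0 and 0.500 (13 of 34). Wnt5a, at 0.778 and 1.00, did not follow the wild-type order. Of all 4597 genes outside the 40 and the rule with a mean of at least 0.1 in the 44 cells, 839 (18.3%) were 2-fold or more higher in the 9 cells and 916 (19.9%) lower. By sign alone 2297 (50.0%) of the 4597 were higher in the 9 cells. Among the 4597 were 362 genes 2-fold or more higher in wild-type group A than B. Of these 269 (74.3%) had the same sign, 176 (48.6%) passed 2-fold the same way and 36 the opposite way. Of 278 genes higher in B these were 232 (83.5%), 158 (56.8%) and 13. With the Pdgfra limit at 2 the cells were 18 and 62, and 2289 (49.8%) of the 4597 genes were higher in the 18. Past 2-fold, 531 of the 4597 were higher in the 18 and 737 lower. The same sign was held by 290 (80.1%) and 239 (86.0%) genes. Of these lists 168 (46.4%) and 156 (56.1%) passed 2-fold the same way, and 22 and 9 the opposite way. These means rest on 9 cells, and no test was run.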

How the data were processed

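Droplet 3′ single-cell RNA libraries of the colon of wild-type and of Pdgfra-H2B-eGFP mice were analysed, 1 library of 3 pooled female mice each. The authors counted UMIs on mm10 with Cell Ranger and filtered and normalised cells in Seurat 3.1 (R 3.6.2). The deposited whole-number values are the corrected counts of SCTransform, a score and not raw counts, so no count test was run, and the raw depth per cell is not known from them. The deposited log tables hold the natural log of 1 plus these values. No sample held replicates, and intervals are Clopper-Pearson at 95%, for counting error only.

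Cells were selected by the thresholds given in the report. Where Cd34, Myh11 and Rgs5 limits were failed together, a cell was counted first in the Myh11 range, then in the Rgs5 range, then with the Cd34 cells. Genes with a mean of at least 0.02 were compared by the log2 ratio of means with 0.01 added, and 2-fold was the size used for counts. Ward clustering used 15 principal components of 1000 genes. Members and gene lists were chosen with earlier results of these data known. Named genes were list genes with a mean of at least 0.05, the 20 highest and the 20 lowest ratios among genes with a mean of at least 0.2 and above 0 in 10% of cells of the higher class, and the 5 leading genes of each group. Kit and Bmpr1b fall outside this rule and were named after their values were seen. Some genes that the rule allows are not reported here. Doublets were called with Scrublet in scanpy 1.11.5 and kept in the main values. Scripts used Python 3.11.15, numpy 2.4.6, scipy 1.17.1 and pandas 2.3.3, and were tested on simulated data. Alternatives changed the thresholds, the scale, the 0.01 added, the filter and the compared cells. The alternative with Epcam of 0 alone was chosen after seeing the data.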

Additional observations from a re-analysis of the deposited data

Results flagged for a closer look

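4 contractile genes had opposite directions in the libraries, and the difference between the libraries was not tested. In the wild-type library the log2 ratio of CTFs over other Col1a1 cells was -1.31 for Acta2, -1.27 for Tagln, -1.08 for Myl9 and -1.11 for Tpm2. In the reporter library it was 2.51 for Acta2, 2.49 for Tagln, 2.40 for Myl9 and 1.52 for Tpm2. The compared cells held 597 Myh11 range cells in the wild-type library and 1 in the reporter library. Against Cd34 cells alone the ratios were 3.34 and 4.10 for Acta2, 3.42 and 4.53 for Tagln, 3.16 and 3.97 for Myl9 and 1.88 and 2.02 for Tpm2, so both libraries gave the same direction in that comparison. With the mean of the deposited log values the wild-type ratios against all other Col1a1 cells were 0.49 for Acta2, 0.094 for Tagln, 0.29 for Myl9 and 0.31 for Tpm2, the same direction as in the reporter library.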

How the results depend on the processing

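The number of CTFs was 388 without cells at or above 10% mitochondrial values, 343 with Epcam of 0 alone, and between 495 and 657 under the other limits tried. Genes 2-fold or more higher and lower, 408 and 1016, became 36 and 32 with the mean of the deposited log values, 223 and 354 with 0.1 added, and 260 and 506 with a mean of at least 0.1. The reporter library held 85 cells at a Pdgfra limit of 2. A reversal was counted only for named genes that were 2-fold or more higher or lower in the main values. Among the 193 named genes none of these reversed under the settings on thresholds, doublets, mitochondrial values, pooled sums, Epcam or the 0.1 added. Genes within 2-fold could change sign, as Ceacam1 did from 0.092 to -0.32 with F3 of at least 2. The fold moved by more than 1.5 times for 144 of the 193 named genes with the log values and for 81 with 0.1 added. With the log values the ratio of Acta2 was 0.49, of Myl9 0.29, of Tagln 0.094 and of Tpm2 0.31. Against Cd34 cells alone these were 3.34, 3.16, 3.42 and 1.88, with Cnn1 at 0.26, and without the Myh11 and Rgs5 range cells 2.48, 2.43, 2.63 and 1.59. In 1 random draw, CTFs thinned to 1000 had values above 0 in 14.1% for Sox6, 24.5% for Wnt5a, 5.58% for Glp2r, 54.4% for Bmp5, 19.9% for Bmp7 and 11.5% for Krt8, so shares depend on depth. No paired analysis was possible because each group is 1 library. Leaving out a mouse could not be done, since cells carry no mouse of origin.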
